A study of Mus musculus with 6 samples.

Results

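The mitochondrial ribosomal protein genes of KPC cells are described here, across 3 libraries with a hairpin against Brca2 and 3 libraries with a control hairpin. Members were all genes of the count table whose symbol starts with Mrpl or Mrps followed by a digit, and 74 of the 10616 listed genes met this rule, 45 with an Mrpl symbol and 29 with an Mrps symbol. Symbols were then sorted by where the protein sits. The large subunit (39S) held 47 genes, since Mrps30 and Mrps18a encode large subunit proteins despite their names. The small subunit (28S) held 26 genes. The remaining gene, Mrps36, encodes a component of the 2-oxoglutarate dehydrogenase complex and not of the ribosome.

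KPC is a mouse pancreatic ductal adenocarcinoma line. The cells were cultured and carried a lentiviral hairpin selected with puromycin, either against Brca2, the homologous recombination mediator (shBrca2), or non-targeting (shControl), and the comparison asks how knockdown of Brca2 changes the cancer cells' own transcriptome. Live cells were sorted, 10000 per sample, and 3′ end libraries were sequenced after capture of poly(A) RNA. Both groups thus share the parent line, the vector and the selection, and neither the labels nor the methods state whether libraries of a group came from separate cultures, so p-values measure the spread between these libraries only.

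Mitochondrial ribosomes translate the few proteins encoded by mitochondrial DNA, all of them subunits of the respiratory chain and ATP synthase. Their proteins are encoded in the nucleus, made in the cytosol and imported, and are joined to ribosomal RNA that is transcribed in the mitochondrion. The large subunit forms peptide bonds and is held at the inner membrane around its exit tunnel, while the small subunit binds the mRNA and decodes it. Many of these proteins descend from bacterial ribosomal proteins and others were acquired in mitochondria.

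Total counts ran from 1519340 (shBrca2 1) to 2452467 (shControl 2) per library. Raw Brca2 counts were 10, 11 and 14 in the shBrca2 libraries against 33, 52 and 33 in the shControl libraries, a log2 fold change of -1.61 (SE 0.442, DESeq2 adjusted p = 0.0290), although this call was lost when shBrca2 2 (adjusted p = 0.152), shBrca2 3 (0.233) or shControl 2 (0.371) was left out of the DESeq2 fit. Ductal epithelial markers were present (6 of 7 listed), with summed normalized counts of 16509 to 17304 in shBrca2 and 17430 to 18540 in shControl libraries. Their log2 fold changes ran from -0.55 to 1.21, with 4 below 0 and 1 called higher, and their lowest base mean (mean normalized count) was 6.52. Markers of other cell types were scarce: 1 of 6 fibroblast markers (Col1a2, 7.91 to 22.2), 1 of 5 immune markers (Cd68, 11.1 to 20.4), 0 of 3 endothelial markers and 2 of 4 acinar markers (Cela1 and Prss2, 34.1 to 64.4 together) were listed. Principal components were taken over genes with a mean raw count of at least 10. On the first, which held 40.9% of the variance, shControl 3 lay at 0.74 and the other 5 libraries between -0.43 and 0.26.

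Across the whole set, the mitochondrial ribosomal protein genes held nearly the same share of each library. Their summed counts were 1.04%, 1.05% and 1.06% of the total with shBrca2 and 1.05%, 1.06% and 1.06% with shControl. The mean share of shBrca2 libraries was 1.05% ± 0.00578 (SD, n = 3). That of shControl libraries was 1.06% ± 0.00220 (SD, n = 3), which makes a ratio of 0.995. The lowest library, shBrca2 1, had a 95% Wilson interval of 1.03% to 1.06%, and the highest, shControl 3, had one of 1.04% to 1.07%, so these intervals overlapped. They cover counting error only.

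The highest share was 1.01 times the lowest. The same ratio between libraries was 1.13 for the cytosolic ribosomal protein genes (75 genes), whose share ranged from 11.9% in shControl 3 to 13.4% in shControl 1, and 1.11 for the nuclear genes of the respiratory chain (78 genes), whose share ranged from 3.003% in shControl 2 to 3.32% in shControl 1. In each of these 2 sets the 3 shBrca2 libraries lay inside the range of the shControl libraries. A share counts RNA as a part of the library, so a change in the absolute amount of RNA per cell could not be seen.

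Split by subunit, the shares lay apart in opposite directions, by small amounts. Large subunit genes held 0.740% to 0.753% of the counts in shBrca2 libraries and 0.753% to 0.760% in shControl libraries. The ratio of means was 0.984 with no overlap, although shBrca2 3 (0.7530%) and shControl 1 (0.7535%) nearly met. Small subunit genes held 0.302% to 0.313% in shBrca2 and 0.298% to 0.299% in shControl libraries, a ratio of 1.03, also with no overlap. Wilson intervals of single libraries reached at most 0.0136 percentage points to each side for the large subunit and 0.00876 points for the small subunit. Group means differed by -0.0121 and 0.00748 points (shBrca2 minus shControl). An interval of a single library does not give the counting error of a difference between groups, which was not tested.

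The higher small subunit share rested on 1 gene, Mrps6. Without it, small subunit genes held 0.256% to 0.264% in shBrca2 and 0.261% to 0.272% in shControl libraries, and the ratio turned from 1.03 to 0.977 with overlapping groups. This sum was added after the data were seen. With Mrps6 included, the number of large subunit counts per small subunit count was 2.37 to 2.49 in shBrca2 libraries and 2.52 to 2.55 in shControl libraries. This ratio was not taken without Mrps6, so it does not show a shift between the subunits beyond that gene.

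**Figure D1:**
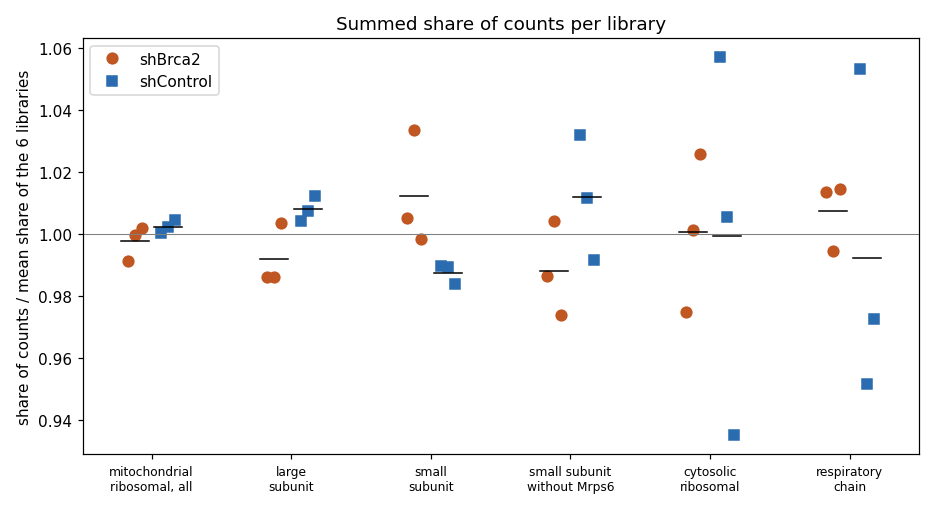
Share of a library's counts held by each gene set, divided by that set's mean share over the 6 libraries (vertical axis, no unit), for shBrca2 (circles) and shControl libraries (squares), with short lines at group means. The mitochondrial ribosomal set as a whole varied by a factor of 1.01 between libraries against 1.13 for cytosolic ribosomal genes, and the small subunit's higher values in shBrca2 libraries were not seen without Mrps6.

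Gene by gene, a single member passed the test. The call asked for a DESeq2 adjusted p under 0.1, a log2 fold change beyond 0.5 in either direction, and more than 5 as base mean, the mean normalized count over the 6 libraries. An adjusted p was available for 72 of the 74 members, and the 2 others, Mrpl23 and Mrpl57, had base means of 4.30 and 2.63, under the filter of the fit. Mrps6 was called higher in shBrca2 cells and 0 members were called lower, where 0.77% and 0.5% of the 9997 genes with an adjusted p were called higher and lower. The call of Mrps6 was lost in edgeR, which therefore called 0 members. Under its own filter edgeR tested 66 members, of which 9 had an unadjusted p under 0.05, against 9 of 72 in DESeq2.

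At an unadjusted p under 0.05, 5 of the 72 members were higher and 4 lower in shBrca2 cells, against 4.55% and 4.11% of all genes tested. The shBrca2 and shControl ranges of normalized counts were apart for 6 of the 72 members in the higher direction and 7 in the lower direction, against 10.2% and 10.4% of all genes tested. Both counts lay near their background. The large subunit gave 3 higher and 2 lower genes at an unadjusted p under 0.05, and the small subunit gave 2 higher and 1 lower.

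The median log2 fold change of the 74 members was -0.03, with 32 above 0 and 42 below, where the median of all genes tested was -0.00094. It was -0.03 for the large subunit (20 of 47 above 0) and -0.02 for the small subunit (12 of 26 above 0). By listed origin of the protein, it was -0.03 for the 28 large subunit genes with a bacterial counterpart and -0.03 for the 19 listed as acquired in mitochondria. It was -0.02 for the 16 small subunit genes with a bacterial counterpart and 0.07 for the 10 others. The 19 include Mrps18a and the 10 include Mrps18b, although both are counterparts of bacterial S18. Cytosolic ribosomal protein genes had a median of 0.04 with 1 called higher and 0 lower, and respiratory chain genes had a median of 0.04 with 0 called higher and 1 lower.

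**Figure D2:**
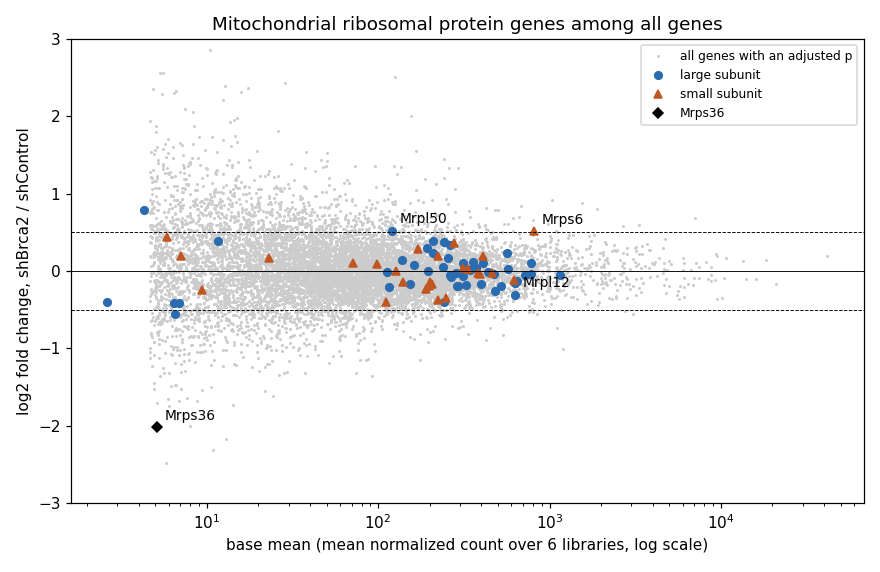
Log2 fold change of shBrca2 over shControl (vertical axis) against base mean (horizontal log axis, mean normalized count of 6 libraries) for all genes with an adjusted p (grey) and the members by subunit. Members with a base mean of at least 100 lay between -0.41 and 0.52, and dashed lines mark the fold change minimum of 0.5.

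How large a change these libraries could have missed depended on abundance. Base means ran from 2.63 (Mrpl57) to 1146 (Mrpl52) with a median of 254, and 61 members reached 100. The nominal 95% interval of the log2 fold change (1.96 SE to each side) lay within -1 and 1 for all 61 of these and for 64 of the 74 members, against 94.6% of the 3774 genes of at least this base mean in the table. It lay within -0.5 and 0.5 for 28 members, and for the rest a change past the fold minimum in at least one direction lay inside the interval. The 10 members with base means under 12 (Mrpl1, Mrpl11, Mrpl15, Mrpl19, Mrpl23, Mrpl57, Mrps14, Mrps18b, Mrps25 and Mrps36) were those whose intervals reached past -1 or 1.

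Between single libraries, the more abundant members spread slightly less than the sets named next, which were not matched to them for abundance. Among members with a base mean of at least 100, the highest library exceeded the lowest by a median factor of 1.38. This factor was 1.47 for all genes of that abundance, 1.55 for cytosolic ribosomal protein genes and 1.45 for respiratory chain genes. The median over members of each library's deviation from the gene means ran from -0.02 in shBrca2 2 to 0.02 in shControl 2 on the log2 scale, while that of the cytosolic ribosomal protein genes ran from -0.15 in shControl 3 to 0.17 in shControl 1. The library that stood apart on the first principal component, shControl 3, thus lay at 0.01 for the members.

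Single libraries set the widest spreads. Mrpl22, an exit tunnel protein, had normalized counts of 139, 46.3 and 140 with shBrca2 and 130, 111 and 132 with shControl, so shBrca2 2 alone was low and the other 5 lay together. Its log2 fold change of -0.20 (SE 0.316) became 0.17 without shBrca2 2. Mrps21, the counterpart of bacterial S21, had 188, 197 and 194 in shBrca2 and 411, 181 and 162 in shControl libraries, where shControl 1 alone was high. Its log2 fold change of -0.38 (SE 0.281) became 0.17 without shControl 1.

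**Figure D3:**
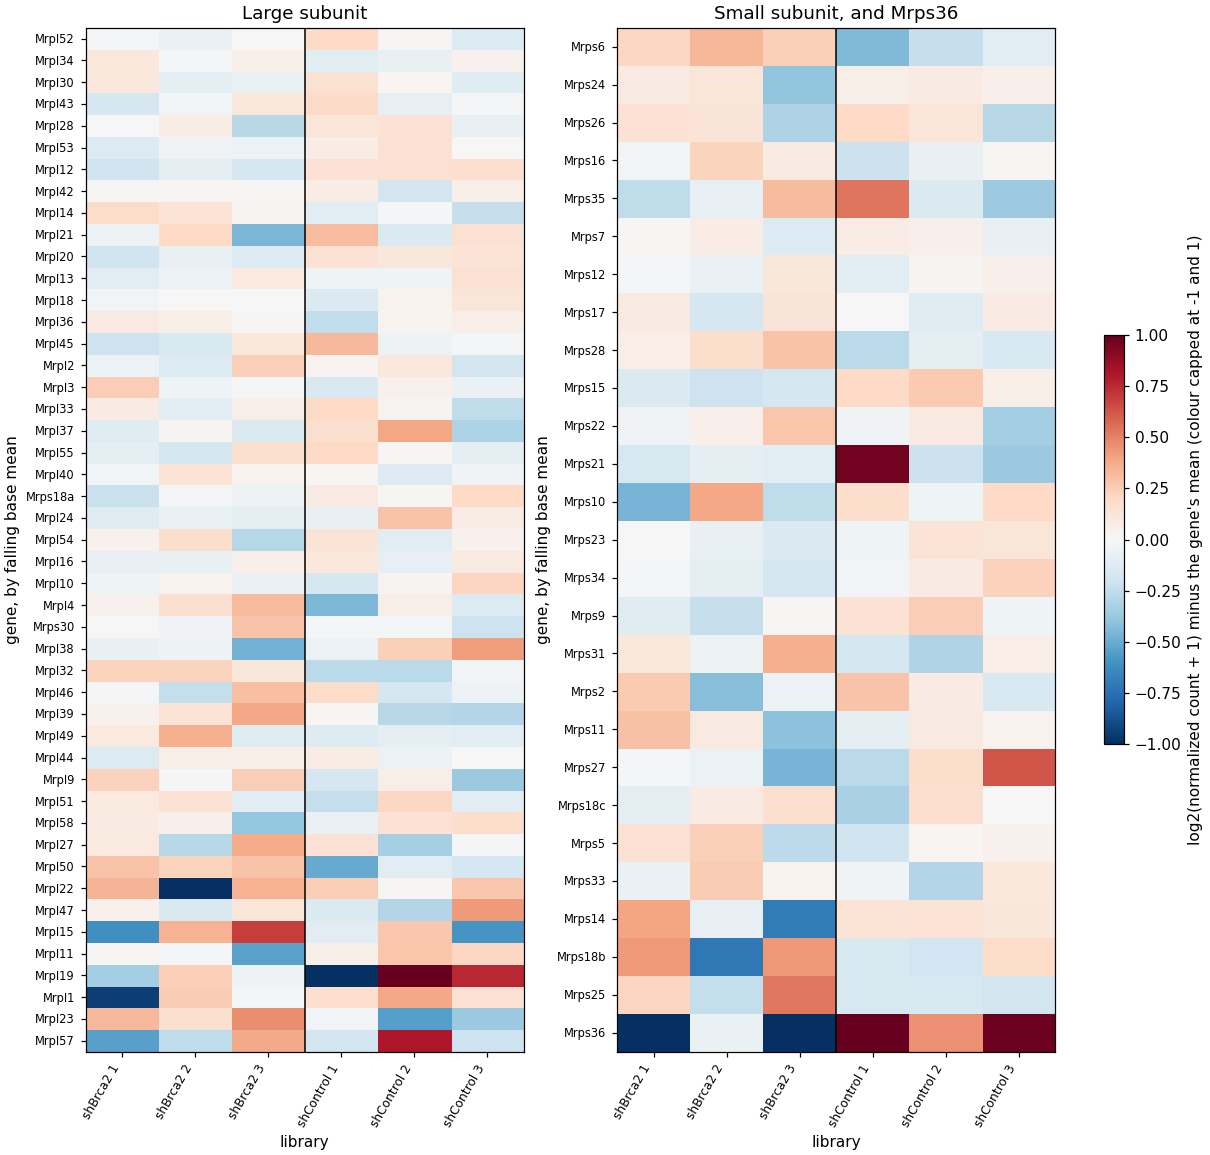
Deviation of log2(normalized count + 1) from the gene's mean over 6 libraries (colour, capped at -1 and 1) for each member (vertical, by falling base mean within a subunit) in each library (horizontal). Most cells are pale, single dark cells mark Mrpl22 in shBrca2 2 and Mrps21 in shControl 1, and the strongest colours lie among low-count genes at the bottom.

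Mrps6 was the only member called. Its protein, the counterpart of bacterial S6, sits on the platform of the small subunit. Normalized counts were 919, 1003 and 937 with shBrca2 and 587, 678 and 741 with shControl. All 3 shBrca2 libraries lay above all 3 shControl libraries, with means of 953 ± 44.0 and 668 ± 77.2 (SD, n = 3 each). The log2 fold change was 0.51 (SE 0.149, DESeq2 adjusted p = 0.0598), just above the minimum of 0.5.

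The Mrps6 call was lost in edgeR, whose test, filter and scaling all differ from those of DESeq2, and without any of 5 libraries. In edgeR the log2 fold change was 0.52 with an adjusted p of 0.115, while the DESeq2 Wald test kept the call (adjusted p = 0.0552). Leaving out a library kept the direction each time (0.43 to 0.59), but the DESeq2 adjusted p rose to between 0.140 and 0.330 for 5 of the 6 libraries and stayed under 0.1, at 0.0719, only without shControl 3. With each library's trend on GC content removed, the log2 fold change was 0.58 (DESeq2 adjusted p = 0.0133).

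Mrps6 lies on chromosome 16 (GRCm38, chr16:92058336-92112227, plus strand) and overlaps another gene of the table. Slc5a3, which encodes a sodium-coupled myo-inositol transporter, starts 14 bases before Mrps6 on the same strand and ends 24754 bases before it. Their ends, where 3′ end reads fall, thus lie apart. Slc5a3 had normalized counts of 106, 61.4 and 94.8 in shBrca2 and 83.9, 62.9 and 37.6 in shControl libraries, overlapping between the groups. Its log2 fold change was 0.50 (SE 0.316, DESeq2 adjusted p = 0.723).

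The sequence before the starts is shown for the called gene and for the members with the next smallest p in each direction, Mrpl50 and Mrpl12. Sequences are from RefSeq on GRCm38.p6, run 5′ to 3′ on the strand of the gene up to the base before its start, reach back up to 250 bases and leave out bases inside another annotated gene. For Mrps6 this removed the 14 bases from the start of Slc5a3, and for Mrpl50 it left the 92 bases up to the start of Zfp189 on the other strand. Capitals mark matches on either strand to GGGCGGG (the GC box of the SP family) or to the consensus of NRF1, nuclear respiratory factor 1, which was searched as 10 letters, those capitalized before Mrpl12, with the fifth left free.
Mrps6 (chr16:92058086-92058321, plus strand): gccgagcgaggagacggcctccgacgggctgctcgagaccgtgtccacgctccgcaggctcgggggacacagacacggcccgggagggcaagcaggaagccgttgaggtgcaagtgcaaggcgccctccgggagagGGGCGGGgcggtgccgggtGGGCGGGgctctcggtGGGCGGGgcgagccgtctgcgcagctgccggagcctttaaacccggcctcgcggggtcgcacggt
Mrpl50 (chr4:49521084-49521175, minus strand): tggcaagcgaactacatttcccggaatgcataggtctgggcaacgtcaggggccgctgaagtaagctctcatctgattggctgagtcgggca
Mrpl12 (chr11:120484387-120484636, plus strand): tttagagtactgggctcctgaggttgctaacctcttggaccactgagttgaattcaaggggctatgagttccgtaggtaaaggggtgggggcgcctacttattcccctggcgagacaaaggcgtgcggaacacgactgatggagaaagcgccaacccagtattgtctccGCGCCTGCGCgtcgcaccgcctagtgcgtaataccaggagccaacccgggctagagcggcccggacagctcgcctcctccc

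Before Mrps6, GGGCGGG occurred 3 times, starting 114, 95 and 79 bases before the gene. Before Mrpl12, 1 match to the NRF1 letters started 81 bases before the gene. The stretch before Mrpl50 held none of the letters searched, which says only that these letters are not in this window.

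Promoter windows of 300 bases (250 before and 50 after the start) were matched for 65 of the 74 members. The NRF1 letters were in 12 of them (18.5%), against 12.5% of the 8315 matched genes of the table. CCGGAAGT, letters known for ETS factors, was in 11 (16.9% against 9.97%), and GATGGCGGC, the letters of YY1, was in 4 (6.15% against 2.93%). At least 1 of these 3 was in 25 members (38.5% against 23.5%), 18 of 41 in the large and 7 of 23 in the small subunit. GGGCGGG was in 28 members (43.1% against 54.1%). Both strands were searched, these motifs may overlap one another, and a match is a description of letters and not of binding.

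Many members share their start region with a gene on the other strand. Of the 65, 16 (24.6%) had a protein-coding neighbour starting within 1000 bases in the opposite direction, against 911 (10.96%) of the 8315 matched genes of the table. Mrpl46 and Mrps11, one gene of each subunit, start 42 bases apart and had log2 fold changes of 0.04 (SE 0.20) and -0.0019 (SE 0.233). Mrps12 starts 136 bases from Sars2, the mitochondrial seryl-tRNA synthetase, with log2 fold changes of 0.02 (SE 0.164) and -0.19 (SE 0.233). Mrpl36 and Mrpl47 start 21 and 302 bases from Ndufs6 and Ndufb5, subunits of respiratory complex I. These pairs had log2 fold changes of 0.10 for Mrpl36 and -0.15 for Ndufs6, and of -0.02 for Mrpl47 and 0.02 for Ndufb5, and none of these genes was called.

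Among large subunit genes, Mrpl50 had the largest fold change of those with a base mean of at least 100. It encodes a protein acquired in mitochondria. Normalized counts were 144, 138 and 144 in shBrca2 and 82.9, 109 and 105 in shControl libraries, with no overlap. The log2 fold change was 0.52 (SE 0.220), with a DESeq2 adjusted p of 0.403, and it was 0.28 with the GC trend removed.

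Mrpl32, whose protein is trimmed by the m-AAA protease before it joins the ribosome, and Mrpl39 followed. Mrpl32 had 279, 278 and 258 in shBrca2 against 198, 198 and 234 in shControl libraries, with no overlap and a log2 fold change of 0.37 (SE 0.178). Mrpl39 had 214, 228 and 271 in shBrca2 against 209, 171 and 169 in shControl libraries, where shBrca2 1 and shControl 1 lay close together without overlap, and a log2 fold change of 0.38 (SE 0.194). DESeq2 adjusted p-values were 0.529 and 0.572. Mrpl4, the counterpart of bacterial L4, completed the 4 large subunit genes with the smallest p in this direction, at a log2 fold change of 0.34 (SE 0.190, DESeq2 adjusted p = 0.653) with overlapping groups. With the GC trend removed, Mrpl32 lay at 0.14, and without shControl 1, Mrpl4 lay at 0.21.

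In the opposite direction, Mrpl12 had the smallest p of the large subunit. Its protein forms the flexible stalk that recruits translation factors. Normalized counts were 543, 587 and 556 in shBrca2 and 690, 694 and 702 in shControl libraries. The gap between the groups was wider than the range within either of them. The log2 fold change was -0.31 (SE 0.142, DESeq2 adjusted p = 0.493), below the size that could be called.

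Mrpl20, the counterpart of the early assembly protein L20, had 415, 455 and 439 in shBrca2 and 529, 518 and 527 in shControl libraries, again without overlap, and a log2 fold change of -0.27 (SE 0.149). Mrpl38, a protein of the central protuberance, had 226, 230 and 171 in shBrca2 and 229, 281 and 319 in shControl libraries. The groups overlapped by shBrca2 2 and shControl 1 alone, and the log2 fold change was -0.41 (SE 0.20). DESeq2 adjusted p-values were 0.653 and 0.554. Mrpl24, of the exit tunnel, had a log2 fold change of -0.20 (SE 0.174) with overlapping groups. With the GC trend removed, Mrpl38 lay at -0.23, and without shControl 2, Mrpl24 lay at -0.098.

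Among small subunit genes other than Mrps6, Mrps28, the counterpart of bacterial S1, had the smallest p in the higher direction. Its normalized counts were 286, 308 and 333 in shBrca2 and 226, 255 and 244 in shControl libraries, with no overlap and a log2 fold change of 0.36 (SE 0.172, DESeq2 adjusted p = 0.530). Mrps31 and Mrps16 followed at 0.28 (SE 0.208) and 0.19 (SE 0.161), both with overlapping groups. None of these 3 genes was called. With the GC trend removed they lay at 0.14 for Mrps28, 0.17 for Mrps31 and 0.12 for Mrps16, and Mrps31 lay at 0.16 without shBrca2 3 and Mrps16 at 0.13 without shBrca2 2.

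Mrps15, the counterpart of the rRNA-binding protein S15, had the smallest p in the lower direction. Normalized counts were 225, 216 and 220 in shBrca2 and 286, 299 and 258 in shControl libraries, with no overlap and a log2 fold change of -0.35 (SE 0.174, DESeq2 adjusted p = 0.554). Mrps27, a pentatricopeptide repeat protein, had 108, 104 and 78.3 in shBrca2 and 89.9, 122 and 168 in shControl libraries. The range of Mrps27 across libraries was a factor of 2.15, the groups overlapped, and its log2 fold change was -0.40 (SE 0.264), or -0.15 without shControl 3 and -0.26 without shBrca2 3. Mrps9 had a log2 fold change of -0.23 (SE 0.193) with overlapping groups, and one of -0.42 with the GC trend removed.

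**Figure D4:**
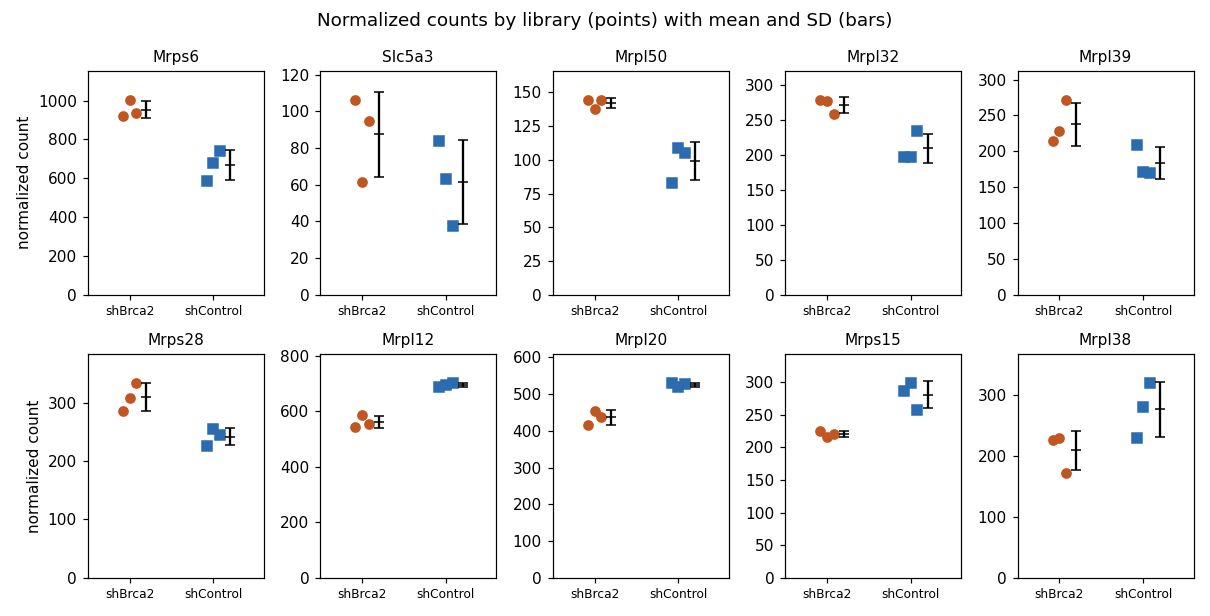
Normalized counts (vertical axes, from 0) of Mrps6, its neighbour Slc5a3 and the large and small subunit members with the smallest p in each direction. Circles are shBrca2 libraries, squares are shControl libraries, and bars give mean and SD of 3 libraries. Mrps36, outside the ribosome, is not shown. Mrps6, Mrpl50, Mrpl32, Mrpl39 and Mrps28 lay higher in all shBrca2 libraries and Mrpl12, Mrpl20 and Mrps15 lower, while Slc5a3 and Mrpl38 overlapped, and only Mrps6 was called.

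By position in the ribosome, the stalk and its base (Mrpl10, Mrpl11, Mrpl12, Mrpl53 and Mrpl54), where translation factors and their GTPase activity are engaged, had all 5 log2 fold changes below 0, with a median of -0.15 and 0 called. Of these 5, 3 (Mrpl11, Mrpl12 and Mrpl53) did not overlap between the groups, where 10.4% of all genes tested did so in this direction. Mrpl53 had 572, 615 and 606 in shBrca2 and 663, 699 and 632 in shControl libraries, a log2 fold change of -0.15 (SE 0.144), or -0.25 with the GC trend removed. Mrpl11 rested on raw counts of 5 to 10 per library, and Mrpl10 (-0.06) and Mrpl54 (-0.03) turned above 0 when a single library was left out. With 42 of 74 members below 0, nothing particular to the stalk can be read from 5 genes.

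The 7 genes of the exit tunnel and its membrane side (Mrpl22, Mrpl23, Mrpl24, Mrpl39, Mrpl44, Mrpl45 and Mrpl50) ran from -0.20 to 0.78, with a median of -0.0073. Mrpl45, which anchors the ribosome to the inner membrane, lay at -0.17 (SE 0.177), and at -0.039 without shControl 1 or -0.27 without shBrca2 3, while Mrpl44, an RNase III family protein, lay at -0.0073 (SE 0.186). The upper end, Mrpl23, had raw counts of 3 to 7 per library. The groups of Mrpl23, Mrpl39 and Mrpl50 did not overlap, with higher counts in shBrca2 libraries. Of the 6 genes with an adjusted p, which leaves out Mrpl23, 2 did so, against 10.2% of all genes tested in this direction. In total 0 of the 7 were called, and nothing particular to the exit tunnel can be read from so few genes.

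The central protuberance, where the mitochondrial ribosome holds a structural tRNA, was represented by 7 of 9 genes (Mrpl18, Mrpl27, Mrpl33, Mrpl38, Mrpl40, Mrpl46 and Mrpl55). Their median was 0.0064, the other 6 besides Mrpl38 lay between -0.07 and 0.15, and their groups overlapped throughout. The 6 small subunit genes of the mRNA channel, decoding centre and body (Mrps5, Mrps7, Mrps12, Mrps24, Mrps27 and Mrps34) had a median of -0.07 and overlapping groups. Mrps12, the counterpart of the decoding protein S12, had 331, 319 and 362 in shBrca2 and 309, 340 and 345 in shControl libraries, a log2 fold change of 0.02 (SE 0.164).

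Mammals have 3 counterparts of bacterial S18, which sit at different places. Mrps18a, in the large subunit, had 249.3, 286 and 280 in shBrca2 and 308, 294 and 334 in shControl libraries, a log2 fold change of -0.20 (SE 0.169) without overlap. Mrps18c, which takes the place of the bacterial protein beside Mrps6, lay at 0.09 (SE 0.241), while Mrps18b, with a base mean of 7.12, lay at 0.20 (SE 0.750). Both of these overlapped between the groups, and none of the 3 was called.

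Mrps36, the member outside the ribosome, was singled out after its values were seen. Raw counts were 1, 4 and 1 with shBrca2 and 10, 7 and 9 with shControl. The groups did not overlap, yet the counts were few, and the log2 fold change was -2.02 (SE 0.974, DESeq2 adjusted p = 0.517).

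**Figure D5:**
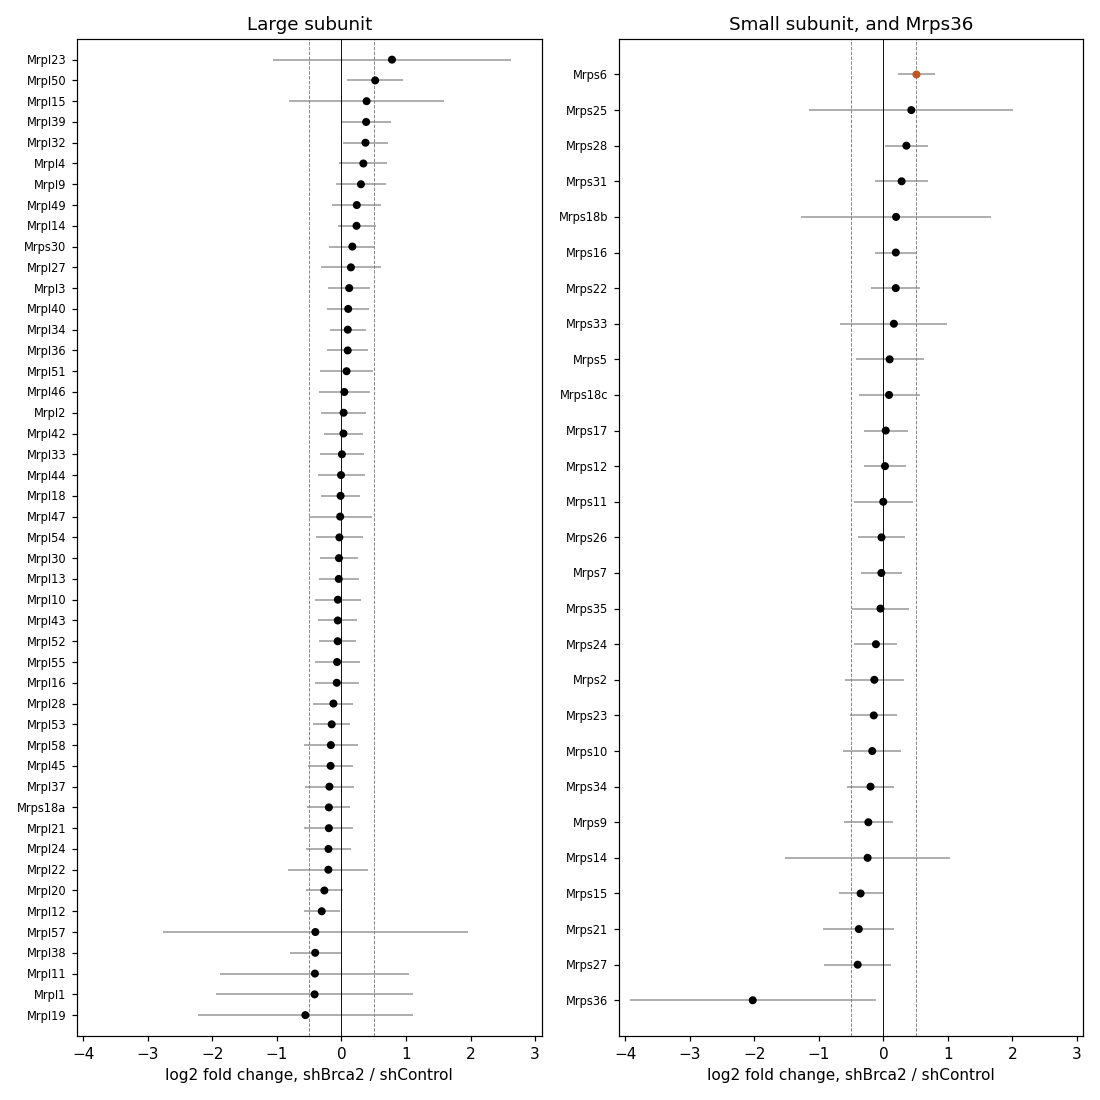
Log2 fold change of shBrca2 over shControl (horizontal axis) of every member, with nominal 95% intervals of 1.96 SE to each side, ordered by value within the large subunit and within the small subunit with Mrps36. The called gene, Mrps6, is coloured, dashed lines mark -0.5 and 0.5, and the widest intervals belong to genes with base means under 12.

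The other genes of mitochondrial translation, taken from fixed lists, gave 0 called among 70 listed, 28 above 0 and 42 below, with a median log2 fold change of -0.12. Ribosomal proteins with other names were 5 of 7 listed, all below 0 (Dap3, Ptcd3, Chchd1, Aurkaip1 and Gadd45gip1, from -0.55 to -0.02). Dap3, a GTP-binding small subunit protein, had a base mean of 3.03 and no adjusted p, and Chchd1, at a base mean of 499, had a log2 fold change of -0.11 (SE 0.155), or -0.033 without shBrca2 2. Medians were 0.04 for 12 translation factors, -0.16 for 28 assembly factors, 0.02 for 11 genes of mitochondrial DNA expression and -0.18 for 14 mitochondrial tRNA synthetases.

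At an unadjusted p under 0.05 these lists gave 1 higher and 2 lower genes of the 68 with an adjusted p, named after their values were seen, where 4.55% of all genes tested were higher and 4.11% lower. These counts are too small to set the lists apart from this background. Mterf3, of the mitochondrial transcription termination factor family, had a log2 fold change of 0.66 (SE 0.321). Aars2, the mitochondrial alanyl-tRNA synthetase, lay at -0.73 (SE 0.278), while Vars2, the valyl-tRNA synthetase, lay at -0.50 (SE 0.227). DESeq2 adjusted p-values were 0.548, 0.292 and 0.482. The table listed 0 genes of mitochondrial DNA, so the RNA that these ribosomes translate was not analysed here.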

How the data were processed

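RNA-seq was measured in 6 libraries of KPC cells, 3 per group, grouped by the source name in the labels. The authors deposited raw counts per gene symbol, not normalized and with 1 column per library. The submitters' processing notes name bcl2fastq, cutadapt, STAR 2.4.2a, HTSeq and DESeq2 with the build mm10. The annotation, the strand setting of the counting and the use of molecular identifiers are not given in the sources used here. As reads come from 3′ ends and not in proportion to length, levels were not compared between genes. Counts are uncertain for the 15 members that overlap another gene of the table, Mrps6 among them.

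Counts were tested with DESeq2 1.42.0 in R 4.3.3 (median-of-ratios size factors, likelihood ratio test for group, Benjamini-Hochberg adjustment over 9997 genes, unshrunken fold changes), on all 10616 genes. Test and thresholds are those of the study's methods. Each count was divided by its library's size factor to give a normalized count. Shares carry 95% Wilson intervals. No value was tested over the members together, since members are not replicates, and with 3 against 3 libraries an exact permutation test of 1 value cannot give a p under 0.1. The members and gene lists were chosen with earlier results of these data known. Named genes were Brca2, every member called, the 4 members with the smallest p per subunit and direction, the members of the position lists, members without an adjusted p, and ribosomal proteins with other names. Mrpl17, Mrpl35, Mrpl41 and Mrpl48 were not analysed here.

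Other settings tried were the quasi-likelihood test of edgeR 4.0.16 (with filterByExpr and TMM), the Wald test, TMM factors, total counts, scaling without ribosomal protein genes, other low-count filters and thresholds, removal of a loess trend on GC content (span 0.5; GENCODE vM39 longest transcripts) and each library left out. The DESeq2 step was tested on simulated data. Positions and promoters came from RefSeq GRCm38.p6.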

Additional observations from a re-analysis of the deposited data

How the results depend on the processing

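The count of 1 member called became 0 in edgeR and at an adjusted p under 0.05, and 0 to 1 when a library was left out, with 1 only without shControl 3. The DESeq2 Wald test, TMM factors, total counts, scaling without ribosomal protein genes, both low-count filters, removal of the GC trend, no fold change minimum and a base mean over 20 each gave 1. Members at an unadjusted p under 0.05 numbered 9, and 4 to 6 with a library left out. Other mitochondrial translation genes called stayed at 0 in every alternative run. The median log2 fold change with a library left out ran from -0.040 to 0.013 for the large subunit, above 0 without shControl 1, and from -0.035 to 0.031 for the small subunit, so neither median had a stable direction. Brca2 ran from -1.70 to -1.46, losing its call without shBrca2 2, shBrca2 3 or shControl 2, and had no adjusted p with TMM factors or with the GC trend removed.

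Of 551 comparisons of a named gene other than Brca2 under an alternative, 513 kept direction and side of the threshold, 6 (all Mrps6) lost the call and 32 changed sign, all of genes that were not called. With the GC trend removed, log2 fold changes turned to 0.13 for Mrpl54, 0.081 for Mrpl18, -0.046 for Mrpl33, 0.040 for Mrpl44, -0.17 for Mrps18c and 0.079 for Mrps7. With a library left out, the ranges that crossed 0 were -0.15 to 0.041 for Mrpl10, -0.086 to 0.044 for Mrpl18, -0.44 to 0.17 for Mrpl22, -0.029 to 0.30 for Mrpl27, -0.11 to 0.11 for Mrpl33, -0.041 to 0.050 for Mrpl44, -0.12 to 0.16 for Mrpl46, -0.14 to 0.094 for Mrpl54, -0.18 to 0.013 for Mrpl55, -0.030 to 0.064 for Mrps12, -0.038 to 0.21 for Mrps18c, -0.62 to 0.17 for Mrps21, -0.21 to 0.036 for Mrps24, -0.013 to 0.24 for Mrps5, -0.082 to 0.029 for Mrps7 and -0.24 to 0.13 for Ptcd3. The cause was not tested. Depth limits the 10 members with base means under 12. No paired analysis was possible because the labels give the groups no shared replicate numbers.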
